A study of Mus musculus with 4 samples.

Results

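Wnt signaling in thymic epithelial cells (TECs) was followed through 9 genes among the 31053 listed in the count matrices. They are the ligands Wnt4, Wnt5a, Wnt5b and Wnt10a, the modulators Kremen1, Sfrp1 and Dkk3, the pathway readout Axin2, and the transducer Ctnnb1. The genes were taken by name as Wnt pathway members with a known place in TEC maintenance, and all 9 were found by their symbols. Droplet-based scRNA-seq was made of sorted EPCAM+ CD45- TER119- thymic cells from C57BL/6 mice 6 weeks of age, with 1 library per condition and cells of 3 mice pooled in each. WT-Control mice were wild type and received control IgG, and WT-RANKL-Ab mice were wild type and received a neutralizing antibody to RANKL, the ligand of RANK, at 5 mg/kg. Cd40-/- Control and Cd40-/- RANKL-Ab mice lacked Cd40 in all cells and received the control IgG or the antibody. Injections were given at 4 weeks of age, 2 weeks before the sort. Because a condition has 1 library and mice within it are not told apart, no test between conditions was possible, and every interval below is a 95% interval for counting error only. Differences between mice and between preparations are not covered by it.

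Wnt ligands are secreted proteins that bind Frizzled receptors together with the co-receptors Lrp5 and Lrp6. In the canonical branch this stops the destruction complex of Axin, Apc and Gsk3b from degrading beta-catenin, the product of Ctnnb1, which then enters the nucleus and activates targets with TCF and LEF factors. In the thymus, epithelial cells make Wnt ligands, and Wnt4 is known for its link to Foxn1 and to the upkeep of TECs.

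Sequence directly before a transcript start is shown for Wnt4, the ligand whose level stood apart in Cd40-/- Control, for Wnt5b, which stood apart in Cd40-/- RANKL-Ab, and for the readout Axin2. RefSeq windows of 250 bases before and 50 after a start were found for 4 of the 9 genes, 7 windows in all (GRCm38.p6). A TCF/LEF motif, CTTTGAT on either strand, was searched in each window and was present in 1 of 7, while 3.73% of all 32851 windows hold it. The match lies in 1 of the 3 windows of Wnt5b, at a transcript start inside the gene, and is in capitals below beside the window at the start of the gene. The NF-kB consensus was found in 0 of 7 windows, beside 4.505% of all windows. These matches describe letters and no binding was measured. The stretches below end at the base before any annotated exon of the gene. The Wnt4 stretch is chr4:137277385-137277488 on the plus strand with 83.7% G and C, the Wnt5b stretches chr6:119544348-119544597 at the gene's start and chr6:119449387-119449636 inside the gene, both on the minus strand, with 75.2% and 55.6%, and the Axin2 stretch chr11:108920099-108920348 on the plus strand with 69.2%.
Wnt4: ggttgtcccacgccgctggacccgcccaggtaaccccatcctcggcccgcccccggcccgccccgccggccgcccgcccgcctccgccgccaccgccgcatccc
Wnt5b (start of the gene): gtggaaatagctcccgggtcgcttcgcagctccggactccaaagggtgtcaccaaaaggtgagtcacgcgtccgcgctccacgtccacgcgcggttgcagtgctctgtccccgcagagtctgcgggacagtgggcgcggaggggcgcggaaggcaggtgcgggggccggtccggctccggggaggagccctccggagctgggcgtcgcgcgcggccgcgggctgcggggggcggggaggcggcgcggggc
Wnt5b (inside the gene): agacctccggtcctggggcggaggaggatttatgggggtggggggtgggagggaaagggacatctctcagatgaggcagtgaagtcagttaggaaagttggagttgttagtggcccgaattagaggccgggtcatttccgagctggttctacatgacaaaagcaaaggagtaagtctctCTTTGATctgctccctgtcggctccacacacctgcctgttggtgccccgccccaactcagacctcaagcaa
Axin2: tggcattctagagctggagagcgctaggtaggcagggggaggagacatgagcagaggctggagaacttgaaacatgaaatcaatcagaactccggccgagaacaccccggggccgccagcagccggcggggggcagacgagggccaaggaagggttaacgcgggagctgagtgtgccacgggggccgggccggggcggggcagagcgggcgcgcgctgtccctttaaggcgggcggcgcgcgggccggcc

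Cells were placed in classes by marker genes, none of which is among the 9 genes. Ccl21a-high mTEC-like cells carried at least 50 Ccl21a UMIs (unique molecular identifiers, each standing for 1 captured mRNA molecule) per 10000 UMIs of the cell, cTEC-like cells at least 50 of Psmb11 and Prss16, and progenitor-like cells at least 20 of an 8-gene list with Pdpn, Dcn and Gas1 but less Ccl21a than that limit. Ccl21a marks a large pool of medullary TECs (mTECs), and Psmb11 the cortical TECs (cTECs). After filtering, WT-Control gave 9648 classed cells, WT-RANKL-Ab gave 6672, Cd40-/- Control gave 7785 and Cd40-/- RANKL-Ab gave 2008, from libraries of 95607338, 48888745, 66755852 and 19175068 UMIs. In that order of libraries, which is kept throughout, Ccl21a-high cells numbered 3426, 3624, 2038 and 1058, progenitor-like cells 144, 503, 306 and 232, and cTEC-like cells 78, 375, 470 and 242. Aire+ mTEC-like cells, the mature mTECs that express the autoimmune regulator, numbered 3061, 362, 1743 and 5. Cd40 itself gave 110.2 CPM (UMIs per 1000000 UMIs of the cells) over all cells of WT-Control, 28.8 in WT-RANKL-Ab, and 5.75 and 4.77 in the control and antibody libraries of Cd40-/- mice. Psmb11 stood at 2928 to 3771 CPM in cTEC-like cells and Dcn at 1894 to 2763 CPM in progenitor-like cells. Both are gate markers, so their levels follow from the gates and are no check of the classes. Cd40-/- Control and Cd40-/- RANKL-Ab shared 210 cell barcodes, which is 2.30% of the first and 10.0% of the second library, and these had a median of 724 UMIs in the first and 23858 in the second. Other pairs of libraries shared 18 to 125 barcodes. Leaving out shared barcodes changed none of the 2-fold counts of the 9 genes in Ccl21a-high, progenitor-like and cTEC-like cells. The sort removes CD45+ cells, yet thymocyte-like cells made up 0.943%, 3.51%, 3.98% and 9.61% of the 4 libraries.

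In WT-Control, each ligand and modulator had its own order over the classes with at least 50 cells. Wnt4 was highest in cTEC-like cells at 374 CPM (336 to 415), followed by progenitor-like cells at 239 CPM (211 to 269). Ccl21a-high cells without Mgp and Gpx3 stood at 212 CPM and did not differ from progenitor-like cells beyond counting error, and those with Mgp and Gpx3 stood below both at 177 CPM. Wnt4 was lowest in microfold-like cells at 33.0 CPM. Wnt10a ran the other way, with 130.0 CPM (120.4 to 140.1) in early Aire-lineage-like cells (gated on Hes6, Utf1, Tmem158 and Nkx6-2), 89.0 CPM in cycling Ccl21a-low cells, 57.3 CPM in Aire+ mTEC-like cells but only 9.54 CPM in cTEC-like cells. The first of these stood above the second, and the second above the third, beyond counting error.

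Sfrp1, a secreted antagonist that binds Wnt ligands, was highest in Ccl21a-high cells with Mgp and Gpx3 at 353 CPM. Next came those without Mgp and Gpx3 at 276 CPM, cTEC-like cells at 273.5 CPM and cycling Ccl21a-high cells at 272 CPM, which did not differ from one another beyond counting error. Neuroendocrine-like cells were lowest at 28.6 CPM. Dkk3, a secreted protein of the Dickkopf family, reached 13.3 CPM in progenitor-like cells, beside 11.4 CPM in Ccl21a-high cells with Mgp and Gpx3, a pair not separated by counting error. Wnt5a had its highest level, 7.94 CPM, in Ccl21a-high cells with Mgp and Gpx3, not separated by counting error from the 4.45 CPM of microfold-like cells, and it was at 0 UMIs in progenitor-like, cTEC-like, neuroendocrine-like and thymocyte-like cells. Kremen1, a membrane receptor for Dickkopf proteins, ran from 32.7 CPM in keratinocyte-like and 26.5 CPM in cTEC-like cells down to 1.85 CPM in microfold-like cells. Axin2, at 2.49 to 16.7 CPM, and Wnt5b, at 0 to 8.85 CPM, had no neighbouring classes that differed beyond counting error. Ctnnb1 was broad, from 187 CPM in cTEC-like cells to 70.3 CPM in early Aire-lineage-like cells.

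**Figure D1:**
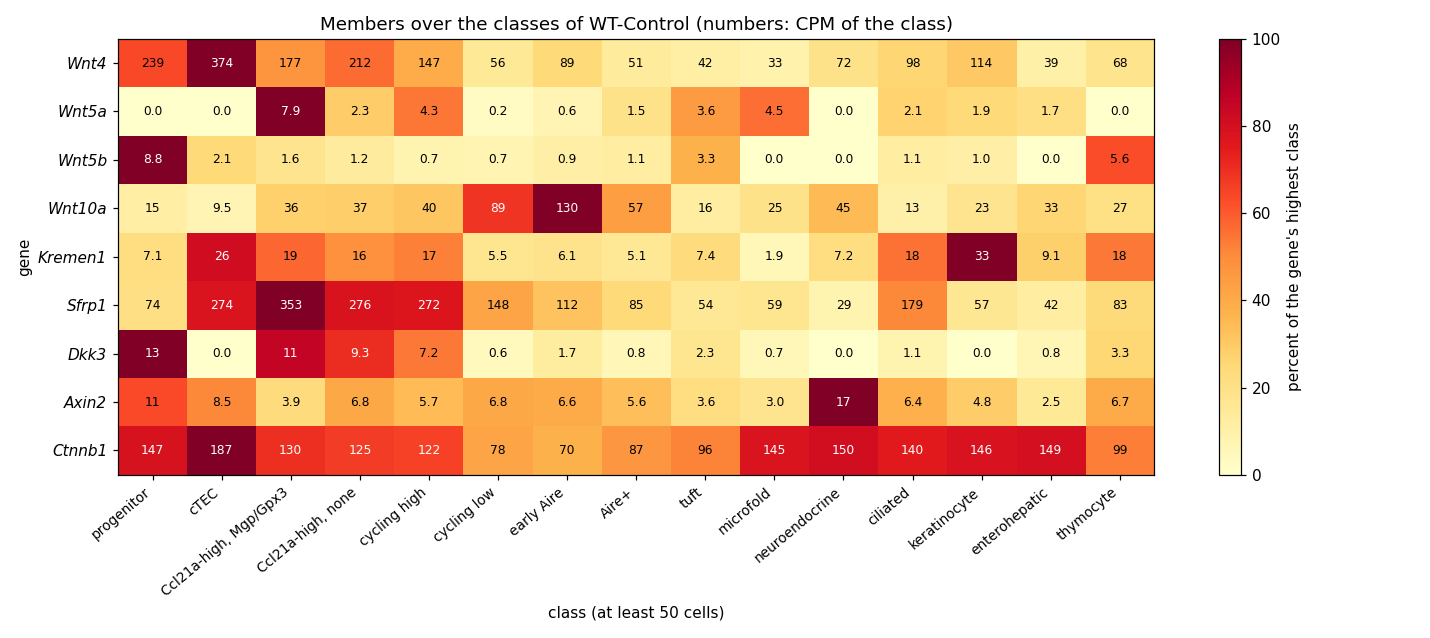
Level of each gene in the classes of WT-Control with at least 50 cells; the number in a cell of the grid is CPM and the color is the percent of the gene's highest class. Wnt4 peaks in cTEC-like cells (374 CPM) and Wnt10a in early Aire-lineage-like cells (130.0 CPM), while Ctnnb1 varies least across the grid in color.

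Wnt4 (ENSMUSG00000036856) lies on chromosome 4 from 137277489 to 137299726 on the plus strand (GRCm38). In Ccl21a-high cells its level was 198 CPM (192 to 203) in WT-Control, 188 CPM (182.5 to 193) in WT-RANKL-Ab, 89.2 CPM (84.2 to 94.4) in Cd40-/- Control, yet 196.5 CPM (187 to 206) in Cd40-/- RANKL-Ab. Cd40-/- Control thus stood apart from the other 3 libraries, which lay close together. Its log2 ratio to WT-Control was -1.15 (-1.24 to -1.06), against -0.07 (-0.13 to -0.02) for WT-RANKL-Ab and -0.01 (-0.09 to 0.07) for Cd40-/- RANKL-Ab. Between both Cd40-/- libraries, the one with RANKL-Ab was 2.20-fold higher, a log2 ratio of 1.14 (1.03 to 1.25). The share of Ccl21a-high cells with a Wnt4 UMI, after each cell was thinned to 1000 UMIs, was 18.6%, 17.3%, 8.73% and 15.4%. Cd40-/- Control was again lowest. By this share Cd40-/- RANKL-Ab lay below both wild-type libraries, whereas its CPM lay between theirs. Thymocyte-like cells, which should lack Wnt4, gave 2.20%, 4.27%, 3.23% and 3.11%, with median depths of 5288, 3765.5, 4395.5 and 1877 UMIs before thinning.

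Wnt4 was lower in Cd40-/- Control than in WT-Control, with an interval below 0, in 11 of the 15 classes with at least 50 cells in both libraries, and the interval included 0 in the other 4 (neuroendocrine-like, ciliated-like, enterohepatic-like and thymocyte-like). The log2 ratio to WT-Control was -0.83 (-1.09 to -0.57) in progenitor-like, -0.57 (-0.75 to -0.39) in cTEC-like, -1.47 (-1.77 to -1.18) in early Aire-lineage-like and -1.40 (-1.65 to -1.15) in cycling Ccl21a-low cells. It was -0.91 (-1.07 to -0.76) in Aire+ mTEC-like and -0.68 (-1.20 to -0.19) in tuft-like cells. Progenitor-like cells carried 239, 193, 135 and 183 CPM over the 4 libraries, and cTEC-like cells 374, 317, 252 and 373 CPM. In both, Cd40-/- Control was lowest, and Cd40-/- RANKL-Ab was above it by log2 0.44 (0.20 to 0.68) and 0.57 (0.44 to 0.69). WT-RANKL-Ab lay a little under WT-Control, by log2 -0.31 (-0.52 to -0.09) in progenitor-like cells, where halved gate limits gave 0.06, and -0.24 (-0.41 to -0.06) in cTEC-like cells. Thymocyte-like cells held 67.7, 95.2, 58.0 and 73.0 CPM of Wnt4, and their log2 ratio for Cd40-/- Control was -0.22 (-0.67 to 0.24). The part of such UMIs, which were counted in cells that should lack the gene, in the ratios of TECs was not tested.

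Wnt10a lies on chromosome 1 from 74791516 to 74804179 on the plus strand. In Ccl21a-high cells it stood at 36.4 CPM (34.2 to 38.8) in WT-Control, 44.0 CPM (41.5 to 46.6) in WT-RANKL-Ab, 37.1 CPM (33.9 to 40.5) in Cd40-/- Control, but 70.3 CPM (64.9 to 76.0) in Cd40-/- RANKL-Ab. The last library was 1.93-fold above WT-Control, a log2 ratio of 0.95 (0.80 to 1.10), and log2 0.92 (0.75 to 1.10) above Cd40-/- Control. Early Aire-lineage-like cells held 130.0 CPM in WT-Control, 74.2 CPM in WT-RANKL-Ab (log2 ratio -0.81, -1.16 to -0.47) and 67.8 CPM in Cd40-/- Control (-0.94, -1.15 to -0.73). Cd40-/- RANKL-Ab had 16 such cells and gives no value. WT-Control had 381 of them with a median of 12649 UMIs, and WT-RANKL-Ab 150 with 5312.5. Between these libraries Aire in the class went from 228 to 85.4 CPM, Ccl21a from 674 to 1786 and Prss16 from 32.6 to 221.5. The part of these differences in the Wnt10a ratio was not tested. In cTEC-like cells the level stayed between 8.21 and 14.97 CPM, and in progenitor-like cells between 9.33 and 15.04 CPM.

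Wnt5a and Wnt5b, ligands best known for branches that do not use beta-catenin, were sparse. Wnt5a lies on chromosome 14 from 28504750 to 28527448 on the plus strand, and Wnt5b on chromosome 6 from 119432531 to 119544347 on the minus strand. In Ccl21a-high cells Wnt5a gave 4.57 CPM (122 UMIs), 7.81 CPM (200 UMIs), 10.8 CPM (145 UMIs) and 14.4 CPM (127 UMIs) over the 4 libraries. WT-Control was the lowest, and the log2 ratios to it were 0.77 (0.44 to 1.11), 1.245 (0.89 to 1.61) and 1.65 (1.28 to 2.02). Within Ccl21a-high cells Wnt5a was higher in those with Mgp and Gpx3 in all 4 libraries, by log2 1.81, 1.53, 2.19 and 1.03, and that subset was 1429 of 3426, 1175 of 3624, 931 of 2038 and 623 of 1058 cells. Wnt5b stood at 1.35, 1.02 and 1.20 CPM in the first 3 libraries and at 6.57 CPM (4.99 to 8.49) in Cd40-/- RANKL-Ab. That last level came from 58 UMIs spread over 53 cells, with at most 3 in 1 cell, and was 4.87-fold above WT-Control (log2 2.28, 1.66 to 2.93). Without barcodes shared between libraries the log2 ratio was 2.18. In tuft-like cells Wnt5a stood at 3.59 CPM (14 UMIs), 8.20 CPM (35 UMIs), 4.27 CPM (7 UMIs) and 7.06 CPM (3 UMIs), and in Aire+ mTEC-like cells it had 52 UMIs in WT-Control and 58 in Cd40-/- Control. Wnt5b in tuft-like cells was above Ccl21a-high cells beyond counting error in WT-Control (3.33 CPM) and WT-RANKL-Ab (3.75 CPM). Tuft-like cells of Cd40-/- Control and Cd40-/- RANKL-Ab held 3.66 CPM (6 UMIs) and 11.8 CPM (5 UMIs). The last value had a log2 ratio to WT-Control of 1.82 (-0.02 to 3.40). In cTEC-like cells Wnt5a had 0, 9, 2 and 4 UMIs, and in progenitor-like cells 0, 8, 7 and 7. The 10 Wnt5b UMIs of progenitor-like cells in WT-Control included 9 from 1 cell.

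Sfrp1 (chromosome 8, 23411502 to 23449632, plus strand) was higher than in WT-Control in all 3 other libraries in Ccl21a-high cells. Its level was 307 CPM (301 to 314) in WT-Control, 483 CPM (474 to 491) in WT-RANKL-Ab, 582 CPM (569.5 to 595) in Cd40-/- Control, then 388 CPM (375 to 401) in Cd40-/- RANKL-Ab. The log2 ratios were 0.65 (0.61 to 0.69), 0.92 (0.88 to 0.97) and 0.34 (0.28 to 0.40), so the smallest difference belonged to the library that combines Cd40 loss with the antibody. Of the Ccl21a-high cells, 25.2%, 36.0%, 39.9% and 29.4% had an Sfrp1 UMI after thinning. In progenitor-like cells the levels were 74.3, 136, 183 and 117 CPM, with log2 ratios of 0.87 (0.53 to 1.23), 1.30 (0.95 to 1.66) and 0.66 (0.29 to 1.04). In cTEC-like cells they were 273.5, 361, 397 and 290.1 CPM, with log2 ratios of 0.40 (0.21 to 0.60), 0.54 (0.35 to 0.73) and 0.08 (-0.12 to 0.29). By these levels the order of the 4 libraries was the same in the 3 classes. In cTEC-like cells, however, Cd40-/- RANKL-Ab was not separated from WT-Control. The log2 ratio there was -0.001 without shared barcodes and -0.05 with median-of-ratios factors. Cd40-/- RANKL-Ab lay below Cd40-/- Control in the 3 classes by log2 -0.59 (-0.64 to -0.53), -0.64 (-0.89 to -0.39) and -0.45 (-0.57 to -0.33). Aire+ mTEC-like cells held 84.6 CPM in WT-Control, 219 CPM in WT-RANKL-Ab (log2 ratio 1.37, 1.23 to 1.51) and 135 CPM in Cd40-/- Control (0.68, 0.59 to 0.76). This class had 3061 cells with a median of 10496 UMIs in WT-Control, but 362 with 3421 in WT-RANKL-Ab. From WT-Control to WT-RANKL-Ab its Aire level went from 639 to 444 CPM, Ccl21a from 422 to 876 and Prss16 from 39.5 to 218. The part of these differences in the Sfrp1 ratio was not tested. Over single classes, the ratio of WT-RANKL-Ab had an interval above 0 in 8 of 11 and that of Cd40-/- Control in 11 of 15, with none below 0. For Cd40-/- RANKL-Ab it was above 0 in 3 of 6 and below 0 in 1, the thymocyte-like cells. In tuft-like cells each interval included 0. In thymocyte-like cells, Sfrp1 stood at 83.3, 88.1, 96.6 and 43.2 CPM.

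Kremen1 (chromosome 11, 5191552 to 5261558, minus strand) encodes a receptor that, with Dickkopf proteins, takes Lrp6 off the cell surface. In Ccl21a-high cells it gave 17.2 CPM (15.6 to 18.8), 15.1 CPM (13.6 to 16.7), 26.3 CPM (23.6 to 29.2) and 20.4 CPM (17.5 to 23.6). Only Cd40-/- Control differed from WT-Control beyond counting error there, with a log2 ratio of 0.62 (0.41 to 0.82). In progenitor-like cells the levels were 7.08 CPM from 8 UMIs, 18.2 CPM from 57, 19.3 CPM from 33 and 9.73 CPM from 19. The log2 ratios were 1.36 (0.29 to 2.64), 1.44 (0.30 to 2.77) and 0.46 (-0.80 to 1.86), and the wide intervals follow from the 8 UMIs of WT-Control. In cTEC-like cells they were 0.36, 0.76 (0.15 to 1.43) and 0.72 (0.09 to 1.40). Thymocyte-like cells carried 17.8, 36.5, 47.3 and 47.7 CPM of Kremen1, and the summed level of 13 thymocyte markers in Ccl21a-high cells was 35.1, 57.8, 46.3 and 64.3 CPM with none of the 13 at 0. The part of thymocyte RNA in the Kremen1 ratios was not tested.

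Dkk3 (chromosome 7, 112116017 to 112159057, minus strand) was low and varied in Ccl21a-high cells from 10.2 CPM (8.98 to 11.4) in WT-Control to 6.95 CPM (5.97 to 8.05) in WT-RANKL-Ab, 17.6 CPM (15.5 to 20.04) and 19.8 CPM (17.0 to 23.0) in the control and antibody libraries of Cd40-/- mice. By CPM, the antibody alone thus went with a lower level, log2 -0.55 (-0.83 to -0.27). The loss of Cd40 alone went with a higher CPM, log2 0.80 (0.54 to 1.05). Together with the antibody it went with log2 0.96 (0.68 to 1.24) over WT-Control. Between the antibody libraries, Cd40-/- RANKL-Ab was above WT-RANKL-Ab by log2 1.51 (1.20 to 1.82). With cells thinned to 1000 UMIs, the share with a Dkk3 UMI was 1.40%, 0.58%, 1.47% and 1.89%. The intervals of both Cd40-/- libraries, 0.995% to 2.095% and 1.16% to 2.90%, overlapped that of WT-Control, 1.035% to 1.853%. With cells thinned to 2000 UMIs the shares were 2.28%, 1.75%, 3.52% and 4.23%. In the subset with Mgp and Gpx3, Dkk3 was higher than in the rest of the class by log2 0.61 (0.23 to 1.00) and 0.60 (0.13 to 1.09) in the Cd40-/- libraries, while the values of 0.28 and 0.32 in the wild-type libraries had intervals that included 0. In progenitor-like cells it lay between 9.21 and 16.9 CPM. In cTEC-like cells it had 0, 2, 4 and 3 UMIs. The fibroblast list of 6 genes, a lineage that also expresses Dkk3, summed to 13.3, 9.60, 39.9 and 33.6 CPM in Ccl21a-high cells with none of the 6 at 0. It was thus higher in the same pair of libraries as Dkk3, and its part in the Dkk3 ratios was not tested.

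Axin2 (chromosome 11, 108920349 to 108950783, plus strand) is a negative regulator in the destruction complex and a common target of canonical Wnt signaling. In Ccl21a-high cells it stood at 5.62 CPM (4.76 to 6.60), 8.43 CPM (7.35 to 9.64), 4.86 CPM (3.75 to 6.19) and 5.66 CPM (4.20 to 7.46). WT-RANKL-Ab was the only library to differ from WT-Control beyond counting error, with a log2 ratio of 0.59 (0.28 to 0.90). In progenitor-like cells Axin2 lay between 10.6 and 15.8 CPM, and in cTEC-like cells between 8.48 and 17.5 CPM, where the ratio of Cd40-/- Control was 1.04 (-0.02 to 2.31). In Aire+ mTEC-like cells of Cd40-/- Control the log2 ratio was 0.55 (0.21 to 0.88). In Ccl21a-high cells with Mgp and Gpx3, the log2 ratio of Axin2 to those without was -0.81, -0.98, -0.70 and -1.19 over the 4 libraries, and the interval of the Cd40-/- Control value (-1.52 to 0.08) included 0. Where Wnt4 was lower, in Ccl21a-high cells of Cd40-/- Control, Axin2 had a log2 ratio of -0.21 (-0.65 to 0.22), and at this depth no difference was detectable. Over 15 single classes of Cd40-/- Control, 1 interval lay above 0 and 14 included it.

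Ctnnb1 (chromosome 9, 120929216 to 120960507, plus strand) encodes beta-catenin, whose activity is set mainly at the protein level. In Ccl21a-high cells its mRNA was at 127 CPM (122.5 to 131), 152 CPM (147.5 to 157), 152 CPM (146 to 159) and 199.9 CPM (191 to 209). All 3 log2 ratios lay above 0, at 0.26 (0.20 to 0.33), 0.26 (0.18 to 0.34) and 0.66 (0.57 to 0.74). In progenitor-like cells they were 0.37, 0.48 and 0.49, and in cTEC-like cells 0.30, 0.46 and 0.31. For Cd40-/- Control the interval lay above 0 in 12 of 15 single classes and below it in 0. These sizes sit beside a shift of all genes in the same direction, since the median log2 ratio over all genes was 0.09, 0.09 and 0.06 in Ccl21a-high cells, 0.16, 0.23 and 0.14 in progenitor-like cells and 0.13, 0.24 and 0.17 in cTEC-like cells.

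**Figure D2:**
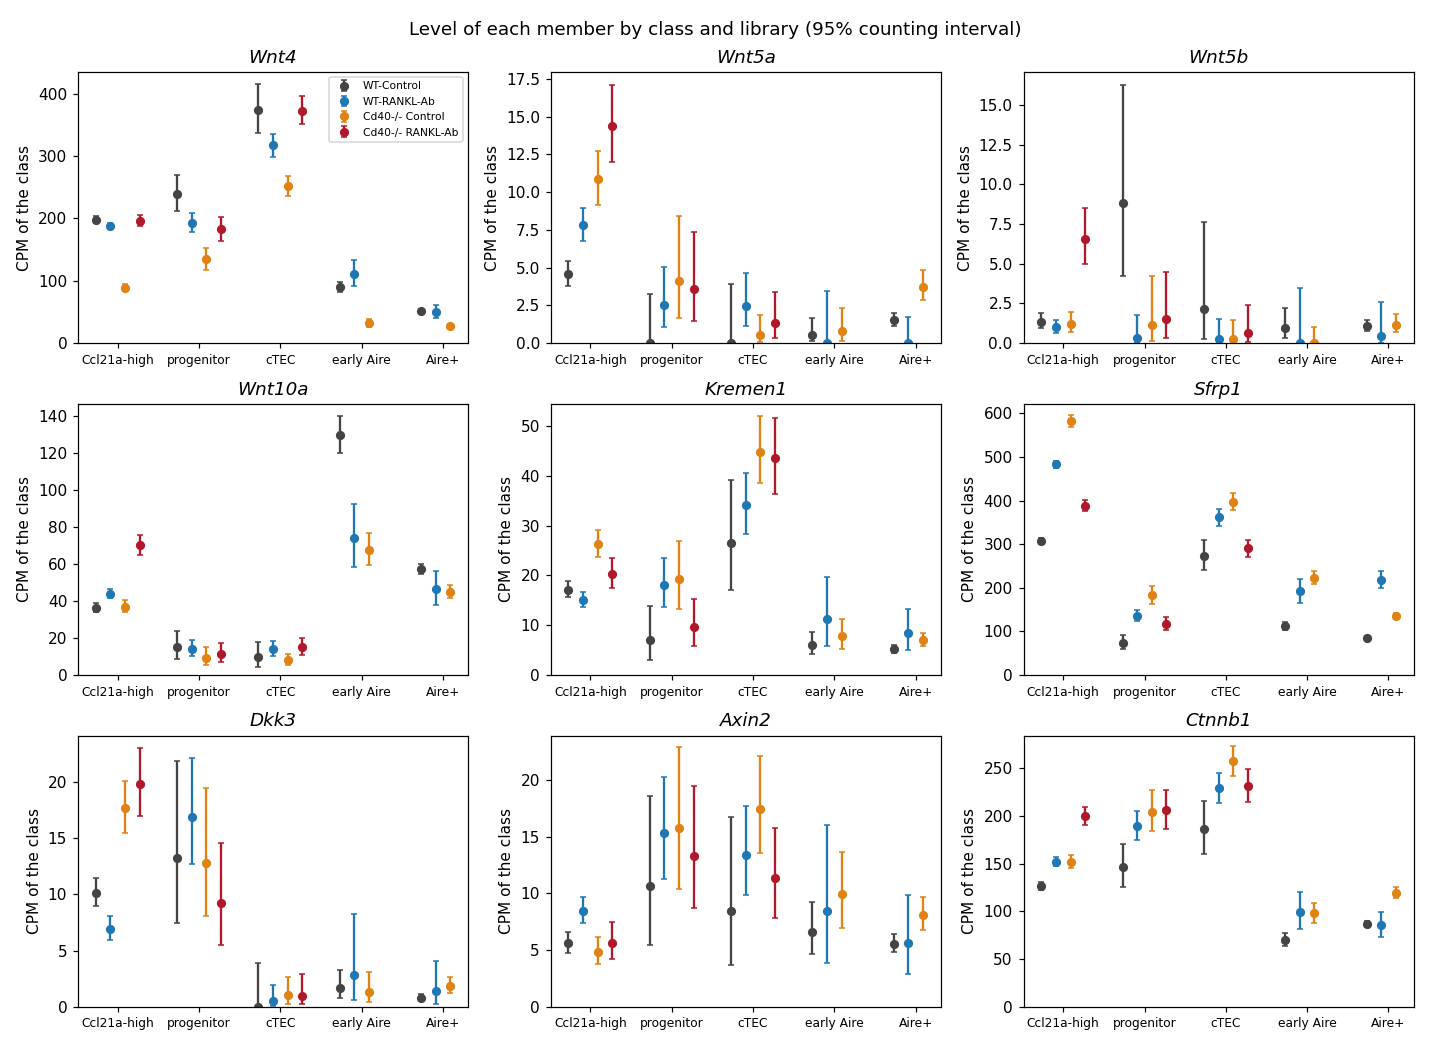
Level of each gene in CPM (linear axis from 0) in 5 classes, colored by library, with the 95% interval for counting error; classes with fewer than 50 cells in a library are left out. In Ccl21a-high cells Wnt4 is lowest in Cd40-/- Control (89.2 CPM) and Sfrp1 highest there (582 CPM), and Wnt5b stands out in Cd40-/- RANKL-Ab (6.57 CPM).

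A difference was counted as past 2-fold from CPM with 1 CPM added, among genes with 20 UMIs or more over the pair of libraries. In Ccl21a-high cells all 9 genes were measured at that limit. In WT-RANKL-Ab, 0 of 9 passed, against 7.61% of all 15291 genes. In Cd40-/- Control 2 of 9 passed, Wnt5a higher and Wnt4 lower, against 5.53% of all genes. In Cd40-/- RANKL-Ab 2 of 9 passed, Wnt5a and Wnt5b higher, against 15.1% of all genes. The 3 comparisons share WT-Control, so they are not independent of one another. The median log2 ratio of the 9 genes was 0.26, 0.26 and 0.65, beside medians of 0.09, 0.09 and 0.06 over all genes. What else the Ccl21a-high cells carried also differed between libraries. In them 6 cTEC markers summed to 631, 1729, 1372 and 1891 CPM and 8 progenitor markers to 489, 649.9, 906 and 1683 CPM, with none at 0 in any library. The Aire+ mTEC markers ran the other way at 613, 424, 355 and 205 CPM, as did the microfold markers at 142, 97.0, 82.8 and 45.6 CPM, and the enterohepatic markers were at 645, 208.5, 340.5 and 41.2 CPM and the myeloid markers at 84.2, 17.5, 67.7 and 5.89 CPM. The part of these cell types in the ratios, of the 9 genes and of pathway genes such as Kremen2 and Wnt10b, was not tested.

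In progenitor-like cells 7 genes could be compared. Kremen1 was the 1 of 7 past 2-fold in WT-RANKL-Ab, where the share over all genes was 8.9%, Kremen1 and Sfrp1 were 2 of 7 in Cd40-/- Control with 15.5% over all genes, and 0 of 7 passed in Cd40-/- RANKL-Ab with 10.5%. In cTEC-like cells 0 of 6 passed in each of the 3 libraries, against 6.97%, 12.6% and 8.17% of all genes. For Cd40-/- Control, Wnt4 was the 1 of 6 past 2-fold both in early Aire-lineage-like cells (9.68% of all genes) and in cycling Ccl21a-low cells (4.52%), and 0 of 9 passed in Aire+ mTEC-like cells (2.68%).

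**Figure D3:**
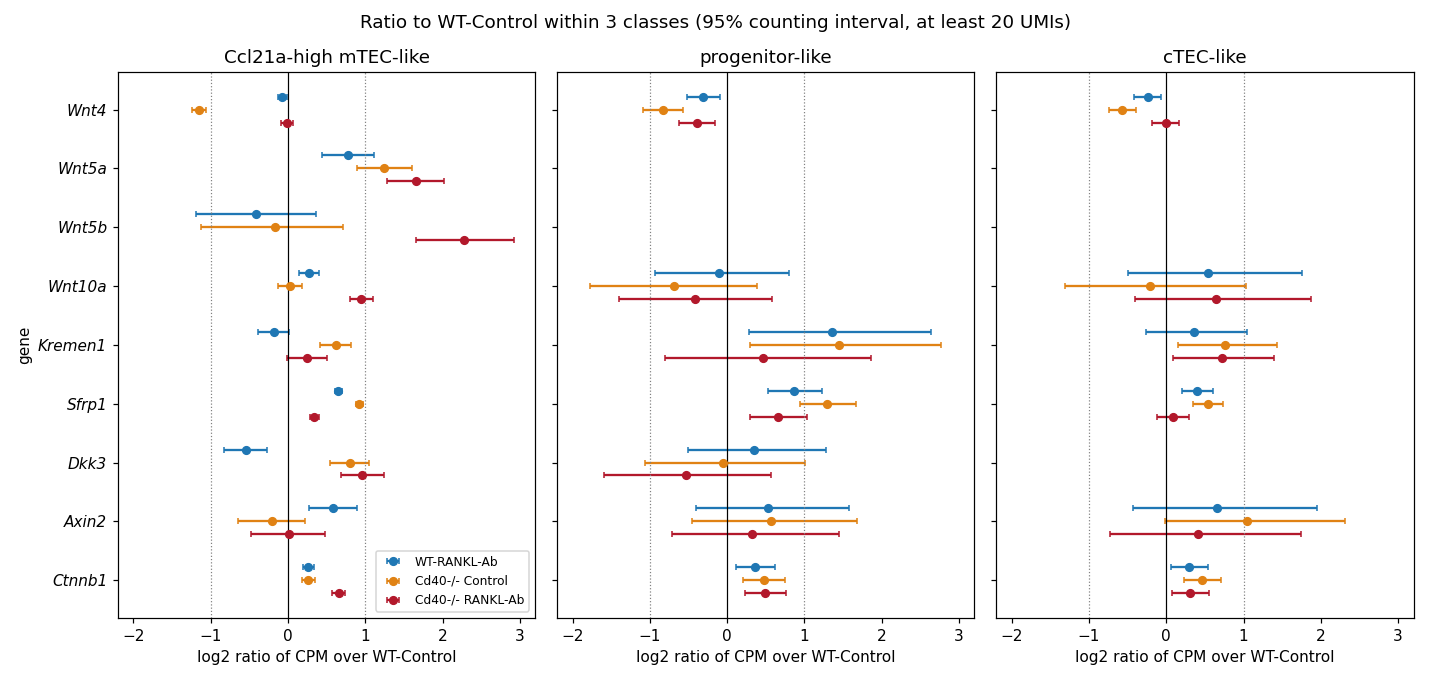
Log2 ratio of CPM to WT-Control for each gene in Ccl21a-high mTEC-like, progenitor-like and cTEC-like cells, with 95% counting intervals; dotted lines mark 2-fold, and genes with fewer than 20 UMIs over the pair of libraries are left out. Wnt4 in Cd40-/- Control lies at -1.15 in Ccl21a-high cells, and Wnt5b in Cd40-/- RANKL-Ab at 2.28.

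The antibody could be read within each genotype, as WT-RANKL-Ab over WT-Control and as Cd40-/- RANKL-Ab over Cd40-/- Control. In Ccl21a-high cells the Wnt4 log2 ratio was -0.07 in wild-type and 1.14 in Cd40-/- mice, and the Sfrp1 ratio 0.65 and -0.59. In both genes the genotypes lay on opposite sides of 0 with intervals that left 0 out. Wnt5a was higher with the antibody in both genotypes, by log2 0.77 and 0.41 (0.05 to 0.76), as was Ctnnb1, by 0.26 and 0.39 (0.30 to 0.49), and Wnt10a, by 0.27 and 0.92. In Cd40-/- mice the Wnt5a ratio was -0.08 (-0.49 to 0.32) in cells with Mgp and Gpx3. It was 1.077 (0.33 to 1.825) in those without. The part of the mix of these subsets in the pooled Wnt5a ratio was not tested. Wnt5b went from -0.41 (-1.20 to 0.36) to 2.46 (1.64 to 3.36). Dkk3 went from -0.55 to 0.17 (-0.12 to 0.46), Kremen1 from -0.18 to -0.37, and Axin2 from 0.59 to 0.22 (-0.34 to 0.77).

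**Figure D4:**
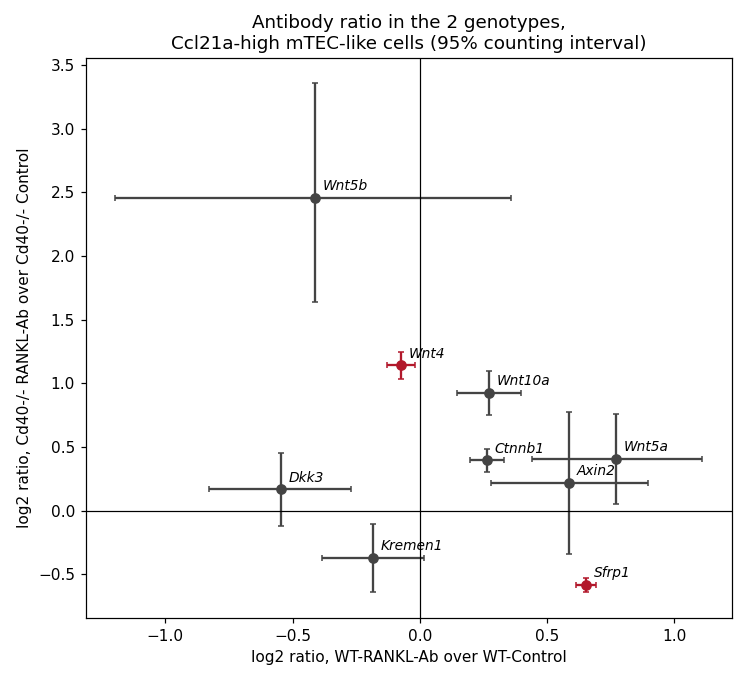
Log2 ratio of the antibody library over the control library in Ccl21a-high cells, wild-type mice on the x axis and Cd40-/- mice on the y axis, with 95% counting intervals; red marks genes whose intervals lie on opposite sides of 0. Wnt4 and Sfrp1 are the red points, at -0.07 and 1.14 and at 0.65 and -0.59.

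Beyond the 9 genes, 88 further genes of the pathway were listed by role, and all 88 were in the files, 46 of them at 5 CPM or more over all cells of WT-Control. Of the ligands, 3 of 15 were at that level (Wnt6, Wnt8b and Wnt10b), and of the receptors 10 of 18. No R-spondin, a class of secreted enhancers, reached it, with Rspo1 at 4.70 CPM and Rspo3 at 4.33 CPM, and Porcn, which adds the lipid to Wnt ligands, stood at 1.75 CPM. Of the secreted inhibitors it was 4 of 13, of the destruction complex and transducers 12 of 14, and of the nuclear factors 10 of 12. In Ccl21a-high cells 1 was past 2-fold upward and 3 downward of 66 measured in WT-RANKL-Ab, where the shares over all genes were 0.935% and 6.68%. The counts were 4 and 3 of 67 in Cd40-/- Control, beside 2.66% and 2.87% of all genes. They were 8 and 5 of 66 in Cd40-/- RANKL-Ab, beside 4.08% and 11.04%. The median log2 ratios of the list were 0.16, 0.38 and 0.11. Nkd1, a negative regulator that binds Dishevelled, was among the higher genes in all 3, and it stayed there without the 5% of cells with the most UMIs and by the mean over cells. Rspo1, with 51 UMIs in WT-Control and 6, 3 and 0 in the others, met the minimum of UMIs through WT-Control alone, and it was past 2-fold in none of the 3 under either of these settings. Wnt10b in Cd40-/- Control, and Wnt8b and Sfrp5 in both antibody libraries, were likewise not past 2-fold under either. With 10 CPM added, Nkd1 was past 2-fold in Cd40-/- RANKL-Ab alone, at a log2 ratio of 1.05.

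Among the ligands and their processing, Wnt6 in Ccl21a-high cells stood at 9.56, 17.4, 8.82 and 41.0 CPM, so the highest value was in Cd40-/- RANKL-Ab, as for Wnt5b and Wnt10a. Wnt10b went the other way, at 7.68, 11.1, 3.29 and 1.02 CPM. Wls, the carrier that brings Wnt ligands to the cell surface, was at 161, 198, 328.5 and 308 CPM, higher in both Cd40-/- libraries. Among inhibitors, Kremen2, the paralog of Kremen1, stood at 37.9, 55.4, 11.6 and 9.39 CPM, a log2 ratio of -1.71 and -2.01 in both Cd40-/- libraries, while Kremen1 was not lower there. Sostdc1, a secreted inhibitor of Wnt and BMP signaling, was at 80.3, 42.0, 131 and 54.3 CPM. Sfrp5 stayed at or under 2.59 CPM. Of the receptors, Lgr4 was at 26.6, 30.6, 52.9 and 63.5 CPM, Lrp6 at 51.3, 57.4, 74.0 and 79.6 CPM, and Ryk at 32.2, 42.1, 48.2 and 55.9 CPM, each lowest in WT-Control. Gsk3b, the kinase of the destruction complex, was at 87.1, 162, 174.5 and 201 CPM. Of the readouts, Nkd1 gave 1.09, 3.63, 4.11 and 13.02 CPM, Ccnd1 gave 123, 158.5, 98.8 and 69.6 CPM, and Cd44 gave 48.5, 38.3, 74.8 and 29.7 CPM. These 3 did not move in 1 direction. Of the 11 listed readouts 8 were measured, with median log2 ratios of 0.16, 0.33 and -0.13. Rnf43 and Znrf3, given next, are also readouts. Csnk1a1 (257, 323, 375 and 283 CPM), Ctnnbip1 (63.4, 86.6, 78.2 and 46.0), Tcf7l1 (16.2, 17.5, 18.8 and 14.8), Tcf7l2 (34.8, 47.7, 66.7 and 60.6), Rnf43 (17.2, 20.3, 23.1 and 17.0) and Znrf3 (2.02, 2.23, 3.81 and 5.09) were the other genes with the most UMIs in their roles.

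In progenitor-like cells 2 list genes were past 2-fold upward and 1 downward of 48 in WT-RANKL-Ab, beside 3.99% and 4.91% of all genes. The counts were 11 and 1 of 45 in Cd40-/- Control, beside 10.8% and 4.73%. They were 6 and 1 of 44 in Cd40-/- RANKL-Ab, beside 5.41% and 5.07%. The 3 comparisons had median log2 ratios of 0.42, 0.52 and 0.36. Gsk3b (99.1, 179, 234 and 231 CPM), Lgr4 (25.7, 37.3, 71.7 and 61.4), Fzd6 (9.73, 18.8, 21.6 and 31.2) and Tpbg (16.8, 33.8, 29.2 and 46.6) had their lowest level in WT-Control. Sostdc1 had its highest there, at 29.2 CPM against 10.8, 11.1 and 6.66. The same libraries differ in what else the gate took in, since the Aire+ mTEC markers summed to 669.7, 52.3, 134 and 6.14 CPM and 5 myeloid markers to 272, 5.42, 47.8 and 3.07 CPM in progenitor-like cells, with 2, 1, 1 and 3 of the 5 at 0. The part of these in the ratios was not tested. In cTEC-like cells 2 and 0 of 42, 7 and 1 of 43, and 5 and 0 of 39 were past 2-fold upward and downward, with medians of 0.18, 0.50 and 0.37 and with Wls at 132.5, 200.4, 271 and 192 CPM. Over all genes, 5.31%, 10.6% and 7.04% were higher there and 1.66%, 1.98% and 1.14% lower. For Cd40-/- Control in the other classes it was 7 upward and 2 downward of 50 in early Aire-lineage-like cells (7.28% and 2.41% of all genes), 2 and 3 of 56 in cycling Ccl21a-low cells (2.70% and 1.82%), and 1 and 0 of 80 in Aire+ mTEC-like cells (1.36% and 1.32%).

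Over all cells of a library, the level of a gene depends on the mix of classes as well as on the level within them. Wnt4 gave 106, 169.9, 73.7 and 224.5 CPM over the 4 libraries. The class levels of WT-Control at the class mix of each other library would give log2 ratios of 0.81, 0.35 and 1.12, beside the measured 0.68, -0.53 and 1.08. The measured ratio was below the mix value in WT-RANKL-Ab (0.63 to 0.72) and in Cd40-/- Control (-0.58 to -0.48), and its interval in Cd40-/- RANKL-Ab (1.02 to 1.13) held the mix value. Weighted the other way, with each library's class levels at the mix of WT-Control, the Wnt4 ratios were -0.0035, -1.004 and 0.32, and with gate limits doubled 0.27, -0.91 and 0.72. The value of Cd40-/- RANKL-Ab at that mix rests in part on 5 Aire+ mTEC-like, 16 early Aire-lineage-like and 2 cycling Ccl21a-low cells. It also takes in 7 cycling Ccl21a-high, 3 ciliated-like, 2 keratinocyte-like, 1 microfold-like and 1 enterohepatic-like cells. The Aire+ mTEC-like class alone has 33753208 of the 94853418 WT-Control UMIs that set the weights. For Sfrp1 the mix alone gives 0.47, -0.01 and 0.55, beside measured ratios of 1.13, 0.78 and 0.83. For Wnt5a it gives 0.20, -0.22 and 0.15, beside 1.07, 0.67 and 1.58. Wnt10a over all cells was lower in each library than in WT-Control, at 51.7, 32.2, 36.5 and 39.3 CPM, where the mix gives -0.66, -0.11 and -1.02 beside -0.68, -0.50 and -0.40. Kremen1 (10.04, 17.9, 20.6 and 28.9 CPM), Dkk3 (3.98, 5.45, 5.15 and 10.7), Axin2 (5.75, 8.87, 8.59 and 9.53) and Ctnnb1 (105, 154.5, 148 and 198) were each lowest in WT-Control. Wnt5b, at 1.32, 1.14, 0.883 and 3.88 CPM, was highest in Cd40-/- RANKL-Ab, where its log2 ratio was 1.56 against 0.89 from the mix alone. In a bulk measurement of such a sample, fewer cells of a class and less RNA per cell could not be told apart.

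**Figure D5:**
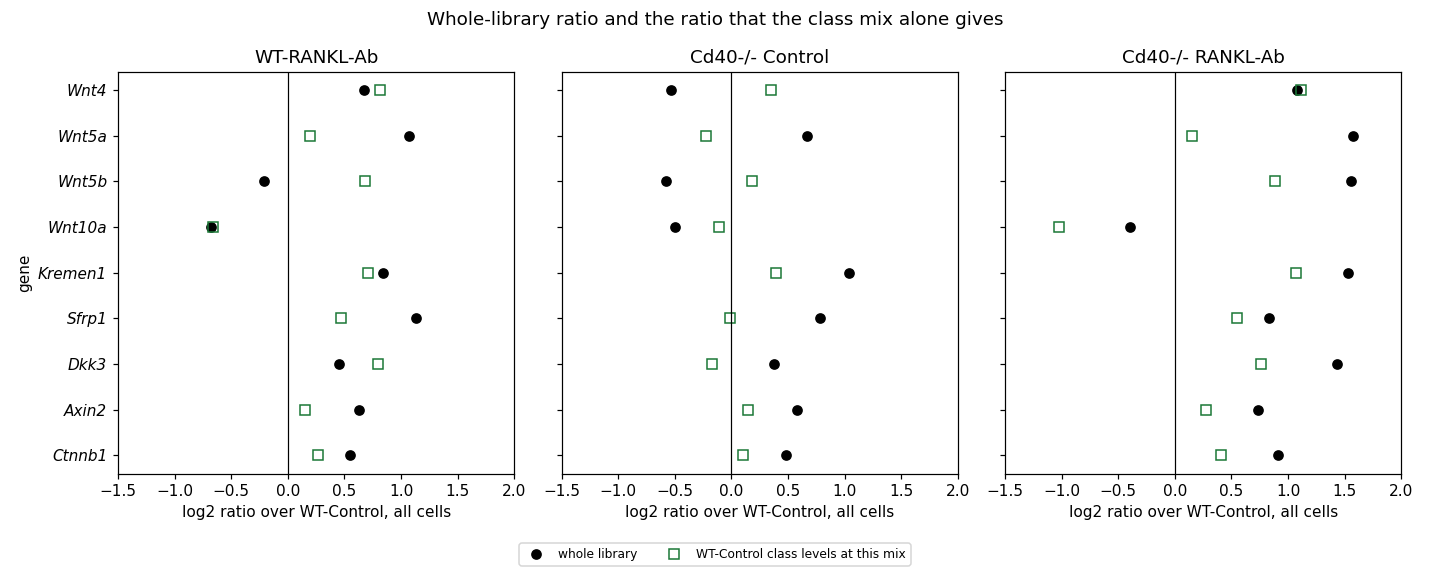
Log2 ratio over WT-Control across all cells of a library (filled circles) and the ratio that WT-Control class levels would give at the class mix of that library (open squares). For Wnt4 the circle and the square lie at 0.68 and 0.81 in WT-RANKL-Ab, at -0.53 and 0.35 in Cd40-/- Control and at 1.08 and 1.12 in Cd40-/- RANKL-Ab.

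The genes whose levels ran most like each member were read from 16 classes of WT-Control with at least 100000 UMIs, over 6262 genes, as Pearson's r of log2(CPM + 10). These classes come from 1 library and differ in depth, so r is a description. Wnt4 was most like Ttc23 (r = 0.94), Gas6 (0.94) and Nxn (0.93). Wnt10a was most like Il11ra1 (0.93), Calr and Icosl (0.91 each). Dkk3 was most like Myl9 (0.97), Gas1 (0.96) and Lmod1 (0.96), of which Gas1 is itself a marker of the progenitor gate. Sfrp1 was most like Csrp2 (0.88), Tubb6 (0.87) and Nemf (0.85). Kremen1 was most like Tbl1xr1 (0.87), Ralgps2 (0.84) and Nras (0.81), and Ctnnb1 was like Atp6v1g1 (0.86) and Lrp6 (0.85). Wnt5a reached 0.86 with 1500015O10Rik, Wnt5b 0.82 with Asns and Axin2 0.81 with Tsc22d2. Their highest class levels were only 7.94, 8.85 and 16.7 CPM. The Wnt5b peak was 10 UMIs, 9 of them from 1 cell, and the Axin2 peak was 7 UMIs. Every like gene was picked for a high r among 6262, and the r that such a pick gives without a relation was not computed. Among the 9 genes, Wnt4 and Kremen1 had r = 0.71, and Wnt10a and Ctnnb1 had r = -0.75.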

How the data were processed

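The authors mapped reads to mm10 with Cell Ranger (5.0.1 in the file headers, 5.1 in the submitters' processing notes) and deposited whole UMI counts per gene and called barcode, without normalization. The labels name version 2 of the library kit and the paper's methods version 3.1. Counts were read with scipy 1.17.1 and numpy 2.4.6 under Python 3.11.15, with pandas 2.3.3 for tables and matplotlib 3.10.9 for plots. Barcodes needed at least 200 genes, at most 25% mitochondrial UMIs and 1000 UMIs, and the last limit left out 570, 492, 806 and 74. Classes were gated on summed marker UMIs per 10000 UMIs, in a fixed order in which the first gate passed names the cell. The limits were thymocyte 20, cTEC 50, tuft 20, microfold 40, neuroendocrine 20, ciliated 20, cycling 10, Ccl21a 50, progenitor 20, Mgp with Gpx3 20, keratinocyte 30, enterohepatic 200, Aire+ 15 and early Aire lineage 10. They were set after values had been seen, and the 9 genes, the lists and the tests were chosen with earlier results of these data known. Cells near a limit are a range rather than a type: in progenitor-like cells 22, 48, 45 and 21 lay within 25% above it and 148, 194, 235 and 159 just under it.

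Levels are UMIs of a class per 1000000 (CPM) with exact Poisson intervals, shares have Clopper-Pearson intervals and ratios exact conditional binomial intervals, all at 95%. No caller marked doublets, and an alternative left out the 5% of cells with the most UMIs in each class and library. Other alternatives were gates halved or doubled, a mitochondrial limit of 13%, at least 2000 UMIs, the mean over cells, totals without Ccl21a, TMM factors (edgeR 4.0.16 under R 4.3.3), median-of-ratios factors, 10 CPM added, at least 100 UMIs, no minimum and thinning to 2000 UMIs. Scripts were tested on simulated data. Coordinates are those of GENCODE M21 and promoters those of RefSeq, both on GRCm38. All 9 genes were named. Of the 88 pathway genes, those named had the 2 highest UMI totals of their role in WT-Control, or differed most in Cd40-/- RANKL-Ab past 2-fold with 10 CPM added and at least 50 UMIs, and genes named only in a count of genes past 2-fold were chosen after their values were seen. For each of the 9 genes up to 3 genes of like pattern were named, and 1 of these is not reported here.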

Additional observations from a re-analysis of the deposited data

Results flagged for a closer look

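The antibody ratio lay on opposite sides of 0 in the 2 genotypes, with counting intervals that left 0 out, for the genes and classes named below. The share of all genes that meet this rule is not given here, so the rule sets these genes apart from no others. Each genotype has 1 library with the antibody and 1 without, so the difference between genotypes was not tested. For Wnt4 the log2 ratio in Cd40-/- mice minus that in wild-type mice was 1.21 in Ccl21a-high cells, 0.75 in progenitor-like cells and 0.81 in cTEC-like cells. In progenitor-like cells the wild-type Wnt4 ratio of -0.31 became 0.06 with gate limits halved. For Sfrp1 the difference had the other sign, at -1.24 in Ccl21a-high cells, -1.51 in progenitor-like cells and -0.85 in cTEC-like cells. For Kremen1 it was -2.35 in progenitor-like cells, from a ratio of 1.36 in wild-type and -0.98 in Cd40-/- mice, where the WT-Control level rests on 8 UMIs. For Ctnnb1 it was -0.45 in cTEC-like cells, from ratios of 0.30 (0.06 to 0.54) and -0.16 (-0.30 to -0.01), both with an interval that ends near 0.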

How the results depend on the processing

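No paired analysis was possible because each condition has 1 library. Depth limited Wnt5b, Wnt5a, Dkk3 and Axin2 outside Ccl21a-high cells, and the WT-Control levels of progenitor-like and cTEC-like cells rest on 144 and 78 cells. Of 653 alternative values of the log2 ratios of the 9 genes, 614 lay within the counting interval of the reported ratio and 39 outside it, and no ratio of 2-fold or more changed sign. The lower Wnt4 in Ccl21a-high cells of Cd40-/- Control ran from -1.32 to -1.15 over the alternatives. Leaving out shared barcodes was added after seeing the data, and moved no count by over 1.5 times.

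Counts of the 9 genes past 2-fold moved as follows, each against WT-Control, with 3 values in a row given in the order of the libraries. The share over all genes was computed at the reported settings only. Counts under the alternatives, here and for the pathway genes below, can therefore not be set against all genes. In Ccl21a-high cells, Cd40-/- Control had 1 with 10 CPM added, with TMM and with median-of-ratios factors, and Cd40-/- RANKL-Ab had 0 with 10 CPM added and 1 with at least 100 UMIs. In progenitor-like cells, WT-RANKL-Ab had 0 with 10 CPM added and with at least 100 UMIs, 3 with no minimum and 2 with gates doubled. Cd40-/- Control had 1 with 10 CPM added and with at least 100 UMIs, 4 with no minimum and 0 with gates halved, and Cd40-/- RANKL-Ab had 2 with no minimum. In cTEC-like cells, WT-RANKL-Ab had 2 with no minimum and 1 by the mean over cells, Cd40-/- Control had 2 with no minimum and 1 both without the cells of highest UMIs and by the mean over cells, and Cd40-/- RANKL-Ab had 1 with no minimum.

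Counts of the 88 pathway genes moved more often, in 44 of 117 alternative values. With 10 CPM added they were 0, 1 and 5 in Ccl21a-high cells, 1 and 4 in progenitor-like cells of WT-RANKL-Ab and Cd40-/- Control, and 0, 2 and 0 in cTEC-like cells. TMM gave 0 and 3 in cTEC-like cells of both antibody libraries and 7 in progenitor-like cells of Cd40-/- Control, and median-of-ratios factors gave 0, 3 and 6. With at least 100 UMIs they were 1, 4 and 8 in Ccl21a-high, 1, 6 and 3 in progenitor-like and 0, 4 and 1 in cTEC-like cells. With no minimum they were 9, 22 and 12 in progenitor-like and 11, 16 and 10 in cTEC-like cells. Gates doubled gave 2 in Ccl21a-high cells of WT-RANKL-Ab, 6 and 7 in progenitor-like cells of WT-RANKL-Ab and Cd40-/- Control, and 1 in cTEC-like cells of WT-RANKL-Ab. Gates halved gave 7 in progenitor-like cells of WT-RANKL-Ab and 5 and 8 in cTEC-like cells of both antibody libraries. The mean over cells gave 1 and 8 in Ccl21a-high cells of both antibody libraries and 8 and 13 in cTEC-like cells of WT-RANKL-Ab and Cd40-/- Control. At least 2000 UMIs and a mitochondrial limit of 13% each gave 1 in cTEC-like cells of WT-RANKL-Ab. Without the cells of highest UMIs, Ccl21a-high cells had 2 in WT-RANKL-Ab and 8 in Cd40-/- RANKL-Ab. Fewer genes tested or larger pseudocounts lower such counts by construction, and for the other settings the cause was not tested.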
